A study of Homo sapiens with 46 samples.

Results

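RNA held on chromatin was compared with RNA of the cytoplasm in ectoderm cells made in culture from H1, a long-established line of human pluripotent stem cells (hPSC). The comparison used 6 of the 46 libraries of the series, 3 labelled chromatin and 3 labelled cytoplasm, chosen by cell type and fraction in their titles. The study fractionated hPSC and their ectoderm, mesoderm and endoderm derivatives, and sequenced the RNA of cytoplasm, nucleus, nucleoplasm and chromatin. Ectoderm was induced in DMEM/F12 medium with KOSR serum replacement and the inhibitors A83-01, PNU-74654 and dorsomorphin, and was collected after 5 days. The hPSC libraries used below came from the same line kept in mTeSR1 on Matrigel, without these inhibitors. All fractions of both cell types were prepared with α-amanitin, an inhibitor of RNA polymerase II, in the buffers. Cells were opened in dilute NP-40, the lysate was spun through sucrose, and the supernatant was taken as cytoplasm. The nuclear pellet was then treated with NP-40 and urea to separate chromatin from nucleoplasm. H1 is 1 line, and the labels do not say whether the repeats came from separate cultures, so p-values measure the spread between libraries, which may be technical. For the gene tests of chromatin against cytoplasm, this spread was estimated over all 12 ectoderm libraries, those of nucleus and nucleoplasm included.

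Transcripts are made and largely spliced while still attached to chromatin, and mature mRNAs are then released and exported. Chromatin preparations are therefore known to hold nascent and unspliced RNA together with some long noncoding RNAs (lncRNAs) that stay at the gene. mRNAs of secreted and membrane proteins are translated at the endoplasmic reticulum (ER), which is continuous with the outer nuclear membrane, while mRNAs of most other proteins are translated on free ribosomes in the cytosol.

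The 6 libraries held between 12790326 and 18474308 counts on assembled transcripts, and 15655 genes entered the test. Levels are CPM, counts per 1000000 counts of a library, after TMM scaling, which assumes that most genes do not differ. Between 0.277% and 8.67% of counts lay on transcripts with no Ensembl gene, and these were left out. Replicate 2 stood apart in both fractions, with 7.34% of such counts in chromatin and 8.67% in cytoplasm, against at most 1.33% in the other 4 libraries. Chromatin replicate 2 also held 3984 unscaled CPM on the unnamed gene ENSG00000280614, against 228 and 250 in chromatin replicates 1 and 3. GENCODE 29 classes this gene, on chromosome 21 from 8393419 to 8394341, as a lncRNA. Whether its counts come from a lncRNA was not tested. The labels say ectoderm and do not say which kind. Of the markers of neuroectoderm, 8 of 10 were in the table, and their summed level was between 1670 and 1971 unscaled CPM. Those in the table were NES, SOX2, PAX6, OTX2, SIX3, LHX2, CDH2 and ZIC1, the last at only 0.182 to 0.899, while SOX1 and HES5 were not in it. Pluripotency markers summed to 202 to 213 unscaled CPM in chromatin and 218 to 273 in cytoplasm, with NANOG not in the table. DPPA4 was between 130 and 181, L1TD1 between 36.5 and 47.8, and ZFP42 between 25.2 and 38.4. POU5F1 was between 1.68 and 7.67 and TDGF1 at most 0.15. None of the 6 endoderm markers was in the table, and of 6 mesoderm markers only PDGFRA was, at 1.47 to 6.44. Non-neural ectoderm markers summed to 165 to 186 in chromatin and 353 to 363 in cytoplasm, mostly from KRT18, with KRT5, KRT14 and TP63 not in the table. Neural crest markers summed to 26.6 to 40.9 and neuron markers to 18 to 35.8 over the 6 libraries. In bulk RNA, fewer cells of a type and less RNA per cell cannot be told apart.

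The fraction labels did not match the known place of every RNA. MALAT1 and NEAT1, lncRNAs known to stay in nuclear speckles and paraspeckles, were both lower in chromatin than in cytoplasm. MALAT1 was at 614, 809 and 491 CPM in the chromatin libraries and at 2081, 1219 and 1702 CPM in the cytoplasm libraries. NEAT1 was at 17.6, 19.4 and 22.6 CPM in chromatin and at 39, 37 and 37.2 CPM in cytoplasm. The groups did not overlap for either gene, and the log2 difference (chromatin minus cytoplasm in every sentence that follows) was -1.39 ± 0.46 (SE, edgeR adjusted p = 0.017) for MALAT1 and -0.93 ± 0.24 (edgeR adjusted p = 0.0043) for NEAT1, whose sign turned on the authors' TPM values (0.052). Both calls were lost when libraries were scaled to their total counts, and the MALAT1 call also on TPM, without chromatin replicate 3 or without cytoplasm replicate 1. These libraries keep their labels below.

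Of the 15655 genes tested, 9689 (61.9%) differed between chromatin and cytoplasm at a Benjamini-Hochberg adjusted p under 0.05 in edgeR's quasi-likelihood test. In chromatin 5151 genes (32.9%) were higher and 4538 (29%) were lower, and the median log2 difference of all genes was 0.091. The CPM of the 3 chromatin and 3 cytoplasm libraries did not overlap in 71.6% of genes. A change of at least 2-fold was seen in 4889 of the called genes. The balance of higher and lower genes was not fixed. With total counts in place of TMM, 6240 genes were higher and 3480 lower and the median was 0.31, and limma on the authors' TPM values (log2 of TPM + 1), which changes the length correction, the scaling and the test together, gave 10196 higher and 898 lower with a median of 0.73. It also turned within TMM scaling, with 4056 higher and 4513 lower without chromatin replicate 1, 4193 and 4705 without chromatin replicate 2, and 4098 and 4648 without chromatin replicate 3. Directions below are thus relative to the middle of the genes, and a gene near that middle has no fixed sign.

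The 7SL RNAs fell most among the called genes with a symbol, a mean of at least 10 CPM and no overlap of the groups. RN7SL1 and RN7SL2 encode the RNA of the signal recognition particle, which brings ribosomes that make secreted and membrane proteins to the ER. They are near-identical copies, so the split of reads between them is uncertain. RN7SL1 was at 38.8, 23.9 and 72.4 CPM in chromatin and at 516, 1122 and 1404 CPM in cytoplasm. RN7SL2 was at 60.8, 51.2 and 101 CPM in chromatin and at 732, 1578 and 2002 CPM in cytoplasm. Every cytoplasm library exceeded every chromatin library, by a log2 difference of -4.49 ± 0.56 (SE, edgeR adjusted p = 1.2e-05) for RN7SL1 and -4.34 ± 0.44 (edgeR adjusted p = 2.1e-06) for RN7SL2. A gene labelled 7SK was also lower in chromatin, at 1.58, 2.73 and 2.13 CPM against 12.8, 8.21 and 49.7 CPM in cytoplasm. RN7SK, whose RNA is known to hold the elongation factor P-TEFb inactive in the nucleus, was not among the genes counted. Whether the gene labelled 7SK makes that RNA is not known here. Cytoplasm replicate 3 was the highest library for 7SL and 7SK and, among other short RNAs, for the ribosomal protein pseudogene RPL23AP42, which was at 344 CPM there and at 45.1 and 75.1 CPM in the other cytoplasm libraries.

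Most mRNAs of the translation machinery were lower in chromatin. All 84 cytosolic ribosomal protein genes were lower in chromatin, against 29% of all genes, with a median log2 difference of -2.05 and a range from -2.67 to -0.84. They took 4.02%, 3.95% and 4.07% of the counts in the chromatin libraries and 12.7%, 13.0% and 15.0% in the cytoplasm libraries. The groups did not overlap, and the means were 4.01% ± 0.0599 (SD, n = 3) and 13.5% ± 1.25 (SD, n = 3), with p = 0.1 in a two-sided exact permutation test, the smallest p that 3 against 3 libraries allow. RPL7 had the lowest log2 difference of these genes, -2.67 ± 0.16, and RPL13A was at 1337, 1394 and 1348 CPM in chromatin and 4508, 4670 and 5426 CPM in cytoplasm.

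Of 57 tested translation factors 46 were lower, against 29% of all genes, 2 were higher and 9 were not called, with a median of -1.27. On the authors' TPM values 19 were lower and 12 higher, with a median of -0.29. EEF1A1, the factor that brings aminoacyl-tRNA to the ribosome, was at 7802, 6529 and 7876 CPM in chromatin and at 26333, 27923 and 26785 CPM in cytoplasm. EEF2, which moves the ribosome along, had a log2 difference of -1.30 ± 0.20 and EEF1G one of -1.88 ± 0.20, both with non-overlapping groups. EIF2B5, a subunit of the exchange factor for eIF2, went the other way, from 33.1, 39.3 and 31.9 CPM in cytoplasm to 66.3, 66.3 and 63.7 CPM in chromatin.

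Many ribosomal protein and elongation factor mRNAs begin with a 5′ terminal oligopyrimidine (TOP) motif, a C followed by a run of C or T at the transcript start that links their translation to growth signals. The start regions of 3 genes of this kind are shown beside those of GAPDH, which fell without such a run, and of 3 genes that rose. Each is the RefSeq start (GRCh38.p14) with 10 bases before it and 20 bases from it, 5′ to 3′, and capitals mark a C with at least 4 further C or T, where that C lies between 3 bases before the start and the fourth base of the transcript.
RPL13A: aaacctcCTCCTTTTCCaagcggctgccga
EEF1A1: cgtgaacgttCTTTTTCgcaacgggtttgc
EEF2: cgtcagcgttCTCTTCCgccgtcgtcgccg
GAPDH: gtgcatccctgtccggatgctgcgcctgcg
LAMA5: gcctggcttcagacccgccgggctcccgcc
LRP1: ccccctcggcacttcagtccggggaacagc
AHNAK: cccccgccccagagcctggcccggcgccag

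The same run was found in 4574 of all 35116 RefSeq start windows (13.0%), searched on the transcribed strand. It stood at a RefSeq start of 54 of 67 ribosomal protein genes with an entry (80.6%), of 16 of 45 translation factor genes (35.6%) and of 4374 of all 27305 genes in the RefSeq promoter table (16%). Among protein-coding genes outside both lists the run went with little difference in level: the median log2 difference was -0.12 in 1977 genes with it and -0.019 in 8349 genes without it. Of the genes with it 36.6% were lower in chromatin, against 32.9% of those without it. A match is a description of these letters and does not show that the motif acts.

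Housekeeping RNAs of the cytosol were also read in lists that share genes. Of 14 RNAs used as cytoplasmic controls, 13 fell and 0 rose, against 29% and 32.9% of all genes, with a median of -1.58, and on TPM 11 fell and 1 rose. These controls are not separate evidence, as EEF1A1, EEF2, RPLP0 and RPS3 are in the translation lists above. GAPDH, PGK1, ENO1, LDHB and TPI1 are also among the glycolytic enzymes below, and NORAD is a lncRNA. GAPDH was at 892, 743 and 912 CPM in chromatin and at 3101, 3600 and 3370 CPM in cytoplasm, a log2 difference of -1.98 ± 0.22. Glycolytic enzymes fell in 15 of 17 cases (on TPM 9 fell and 4 rose), from LDHB at -2.19 ± 0.14 to smaller falls such as PKM at -0.79 ± 0.16, which turned positive on TPM. PFKP, a phosphofructokinase, rose by 0.35 ± 0.089, a call that was lost without chromatin replicate 1 and without replicate 2 of both fractions.

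Nuclear-encoded subunits of the mitochondrial respiratory chain fell in 69 of 78 cases and rose in 3, against 29% and 32.9% of all genes, with a median of -1.72. On TPM 46 fell and 8 rose with a median of -0.69. COX7C, a small cytochrome oxidase subunit, was at 86, 91 and 95 CPM in chromatin and at 340, 376 and 540 CPM in cytoplasm. ATP5F1A and ATP5F1B, subunits of the catalytic head of ATP synthase, were at -1.26 ± 0.15 and -0.47 ± 0.15, and the ATP5F1B call was lost without cytoplasm replicate 2 and its sign turned on TPM. The largest fall was ATP5ME at -2.52 ± 0.48, where cytoplasm replicate 3 held 97.6 CPM against 25.4 and 31.8 CPM in the others, and the largest rise was NDUFV3, at 0.66 ± 0.12. Proteasome subunits fell in 34 of 37 cases, against 29% of all genes, with a median of -1.35, while on TPM 15 fell and 4 rose with a median of -0.37. PSMB6, a catalytic subunit, had the lowest log2 difference, -1.96 ± 0.18.

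Other large falls came from genes of varied roles. RPL36AL, SEM1, GTF2H5, NACA, CDKN3, MAGOH and SEPTIN7 had log2 differences between -2.76 and -2.55, all with chromatin libraries below cytoplasm libraries. NACA, the alpha subunit of the nascent polypeptide-associated complex, was at 191, 218 and 163 CPM in chromatin and 1141, 1134 and 1313 CPM in cytoplasm. MAGOH, a core part of the exon junction complex, was at 4.36, 7.56 and 4.13 CPM in chromatin and 28.9, 26.5 and 40.4 CPM in cytoplasm.

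**Figure D1:**
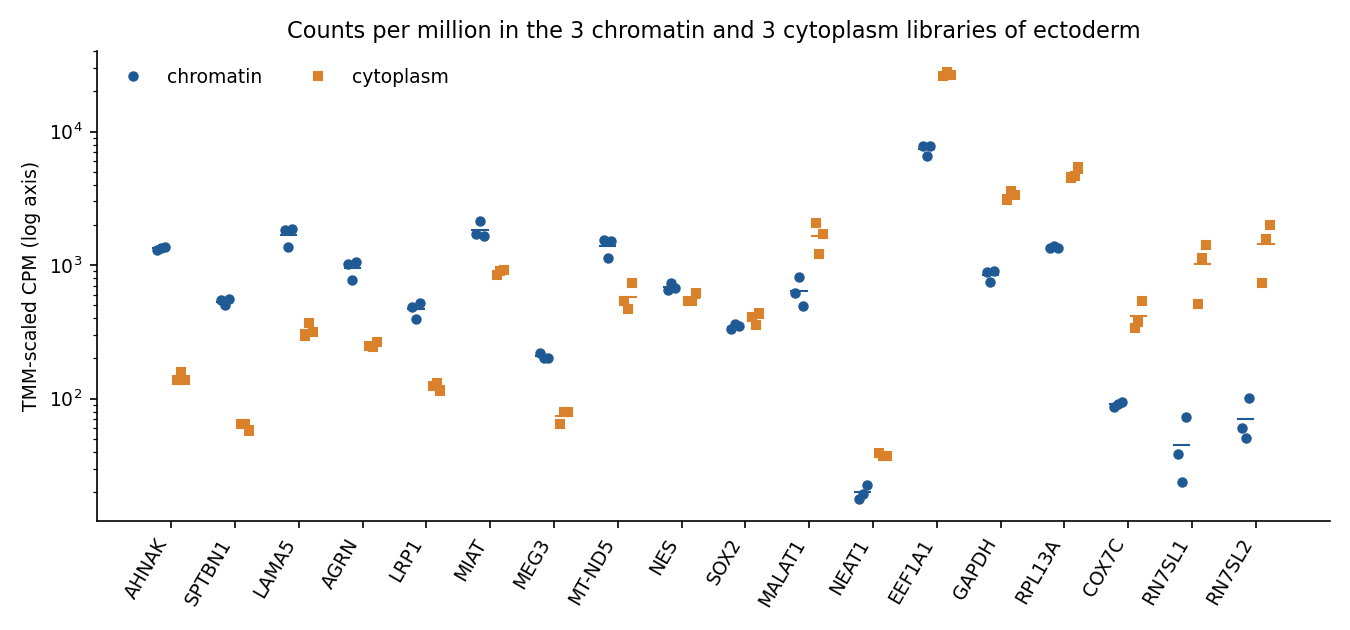
TMM-scaled CPM (log axis) of 18 genes in the 3 chromatin libraries (blue circles) and the 3 cytoplasm libraries (orange squares) of ectoderm, with a line at each mean. The groups are apart for AHNAK, SPTBN1, LAMA5 and MEG3, which are higher in chromatin, and for EEF1A1, RPL13A and RN7SL1, which are lower, while the SOX2 libraries overlap.

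mRNAs of matrix and cell surface proteins rose on chromatin. Of 31 tested genes for collagens, laminins and other matrix proteins, 29 were higher in chromatin and 1 lower, against 32.9% and 29% of all genes, with a median of 1.61. LAMA5, a laminin chain of basement membranes (GRCh38 with GENCODE 29, as for all positions given, chromosome 20, 62307955 to 62367312), was at 1830, 1370 and 1874 CPM in chromatin and at 295, 369 and 315 CPM in cytoplasm, a log2 difference of 2.37 ± 0.15 (edgeR adjusted p = 6.4e-08). AGRN, the proteoglycan agrin, was at 1028, 780 and 1058 CPM in chromatin and at 250, 243 and 265 CPM in cytoplasm. Chromatin replicate 2 was the lowest chromatin library for both genes and still lay above each cytoplasm library.

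FBN2, a fibrillin of microfibrils, rose by 1.10 ± 0.13 and LAMB1 by 0.88 ± 0.13. The 1 matrix gene that fell was SPARC, which encodes a collagen-binding glycoprotein, at 211, 183 and 229 CPM in chromatin and 324, 308 and 317 CPM in cytoplasm, although its sign turned on the authors' TPM values. Without replicate 2 of both fractions 28 matrix genes were higher and 2 lower.

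Cell surface adhesion and receptor genes gave 37 of 42 higher in chromatin and 0 lower, against 32.9% and 29% of all genes, with a median of 1.18. LRP1, an endocytic receptor (chromosome 12, 57128493 to 57213351), was at 487, 396 and 525 CPM in chromatin and at 124, 132 and 115 CPM in cytoplasm, a log2 difference of 1.93 ± 0.13 (edgeR adjusted p = 7.2e-08). LRP2, its relative megalin, rose by 1.72 ± 0.13. The receptor phosphatases PTPRS and PTPRF rose by 1.58 ± 0.13 and 1.45 ± 0.14, and the Notch ligand DLL1 by 1.45 ± 0.12. Without replicate 2 of both fractions, 31 of these genes were higher and 0 lower.

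Genes of the ER machinery itself did not move as 1 group. Of 26 tested genes 4 were higher (15.4%) and 14 lower (53.8%) in chromatin, against 32.9% and 29% of all genes, with a median of -0.45. With total counts 9 were higher and 12 lower, and on TPM 13 were higher and 5 lower with a median of 0.46. HSPA5, the ER chaperone BiP, was at 584, 481 and 595 CPM in chromatin and at 359, 274 and 314 CPM in cytoplasm. SEC61G, a small subunit of the translocation channel, was at 11.3, 16.6 and 10.2 CPM in chromatin and at 40.4, 49 and 91.2 CPM in cytoplasm.

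**Figure D2:**
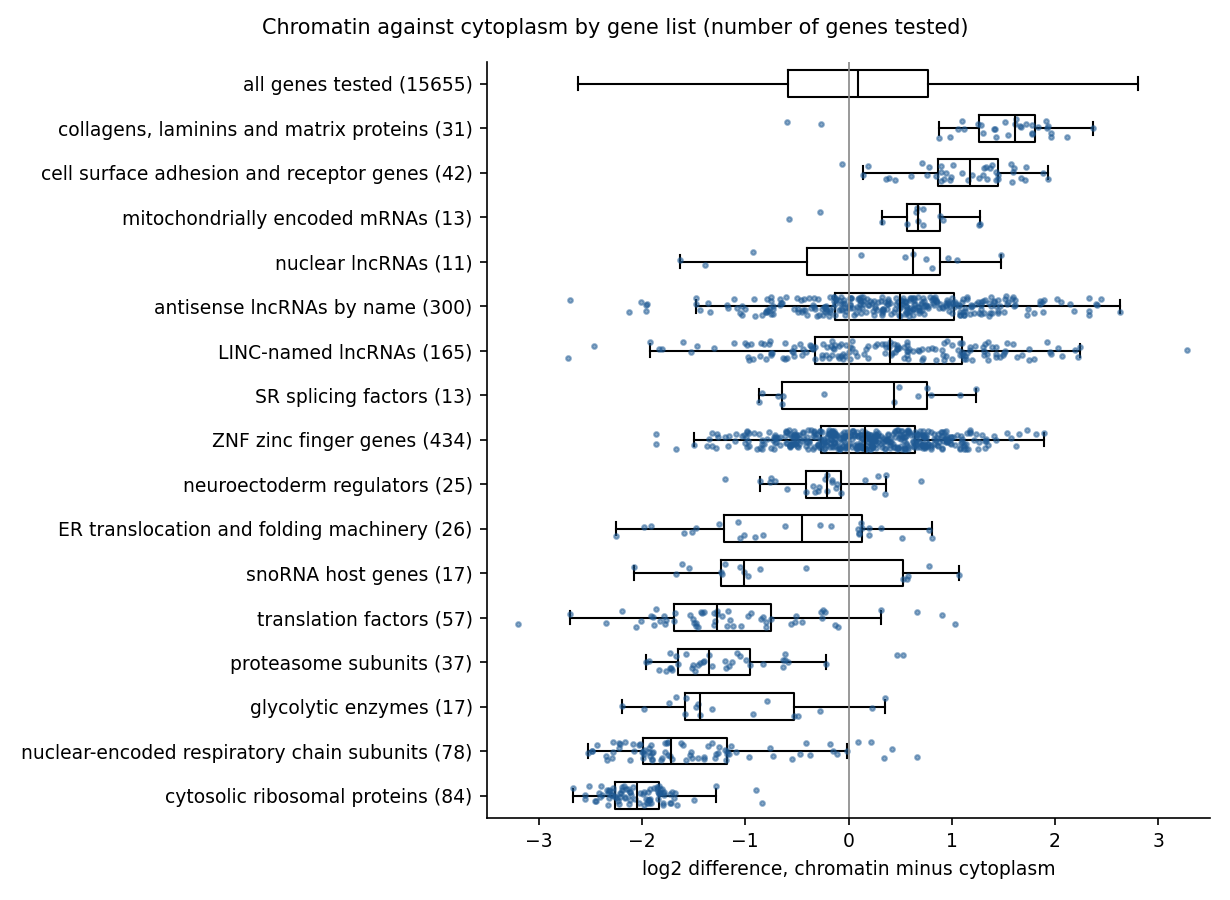
Log2 difference of chromatin minus cytoplasm (x axis) for all genes tested and for gene lists, with the number of genes tested in parentheses. Boxes show the quartiles and median, whiskers reach up to 1.5 box lengths and each point is 1 gene: matrix genes centre on 1.61 and cytosolic ribosomal proteins on -2.05. The axis ends at 3.5 on either side.

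Of 13 mRNAs made in mitochondria 8 were higher in chromatin, against 32.9% of all genes, 0 were lower and 5 were not called, with a median of 0.67. They took 2.33%, 1.68% and 2.2% of counts in chromatin and 1.11%, 0.861% and 1.32% in cytoplasm, with p = 0.1 in the exact permutation test, the smallest p possible. The difference of 0.972 percentage points was 4.39 as a share of the authors' TPM. The means were 2.07% ± 0.343 (SD, n = 3) and 1.10% ± 0.232 (SD, n = 3). Both fractions lay below the other ectoderm libraries, where the share was 7.03%, 9.1% and 8.81% in nucleus and 7.04%, 7.35% and 8.55% in nucleoplasm. MT-ND5 and MT-ND1, subunits of complex I, rose by 1.27 ± 0.24 and 1.26 ± 0.25, and MT-CO1, a cytochrome oxidase subunit, was at 8549, 5903 and 8201 CPM in chromatin and 5058, 3894 and 5362 CPM in cytoplasm. The MT-CO1 call was lost without chromatin replicate 1, chromatin replicate 3 or cytoplasm replicate 2. MT-CO3 rose by 0.72 ± 0.21, not called without chromatin replicate 1 or without replicate 2 of both fractions. MT-ND4 was not called, at 2240, 1595 and 1924 CPM against 1463, 1251 and 1907 CPM. The count of called genes was 3 without chromatin replicate 1, 4 without chromatin replicate 3, 5 without cytoplasm replicate 1, 4 without cytoplasm replicate 2, 4 without replicate 2 of both fractions and 11 without cytoplasm replicate 3, the library in which the short MT-ATP8 was at 14.1 CPM against 1.74 and 1.34 CPM in the other cytoplasm libraries. Mitochondrial mRNA is made outside the nucleus, and what its level here has to do with that of other genes was not tested. With mitochondrially encoded genes left out before scaling, 29 matrix genes were higher and 2 lower, and 36 surface genes were higher and 0 lower.

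Rises were ranked among called genes with a symbol, a mean of at least 10 CPM and no overlap of the groups. The genes with the largest rises did not all belong to these lists. AHNAK, a giant scaffold protein at the plasma membrane (chromosome 11, 62433542 to 62556235), was at 1307, 1351 and 1372 CPM in chromatin and at 139, 158 and 138 CPM in cytoplasm, a log2 difference of 3.21 ± 0.20 (edgeR adjusted p = 4.8e-08). SPTBN1, the beta-spectrin of the membrane skeleton (chromosome 2, 54456285 to 54671445), was at 545, 499 and 558 CPM in chromatin and 64.2, 64.8 and 56.9 CPM in cytoplasm, a difference of 3.11 ± 0.14. Both encode intracellular proteins, and for both the 3 libraries of a fraction lay close together.

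Further genes among the 12 with the largest rises were ANO9 (2.99 ± 0.16), RHPN1 (2.89 ± 0.20), TCIRG1 (2.85 ± 0.15), KLHL17 (2.85 ± 0.18), COL7A1 (2.84 ± 0.17), KIF12 (2.84 ± 0.20), CGB7 (2.82 ± 0.21) and MAMDC4 (2.76 ± 0.24), each on the log2 scale. TCIRG1 encodes a subunit of the vacuolar proton pump and COL7A1 the collagen of anchoring fibrils. MIR6765, a microRNA gene of 87 bases, rose by 3.23 ± 0.40 on the counts of assembled transcripts given its name, which need not be the microRNA itself. FNTB, the beta subunit of farnesyltransferase, was at 26, 23.6 and 23 CPM in chromatin and at 2.21, 6.27 and 0.926 CPM in cytoplasm.

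Genes with a longer annotated transcript were more often higher in chromatin. Protein-coding genes were split into 5 classes of like size by the length of their longest GENCODE 29 transcript. This mature length may come from a coding or noncoding transcript of the gene, and need not be that of the transcripts counted here. In the shortest class, 207 to 2210 bases, 15.3% were higher and 56.6% lower in chromatin, with a median of -0.71. In the longest class, from 6025 bases, 41.7% were higher and 15.0% lower, with a median of 0.31. Over 12910 to 12916 genes Spearman's rho with the log2 difference was 0.33 for mature length, 0.27 for the number of exons, 0.19 for GC percent and 0.13 for the span of the gene on the genome. These are descriptions across genes, which are not independent replicates.

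The matrix and ribosomal protein lists were also read within these classes. In the longest class, 20 of 20 matrix genes were higher with a median of 1.62, against 0.31 for all protein-coding genes of that class. Ribosomal protein genes of the longest class, 4 in number, all fell, with a median of -1.82. Those of the shortest class, 52 in number, had a median of -2.12. The 4 genes were placed by annotated transcripts of 6434 to 7686 bases, which need not be their main mRNAs. These classes therefore cannot show whether the fall of ribosomal protein mRNAs depends on mRNA length. AHNAK has an annotated transcript of 18787 bases, SPARC one of 3701 bases and GTF2H5 one of 7481 bases.

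**Figure D3:**
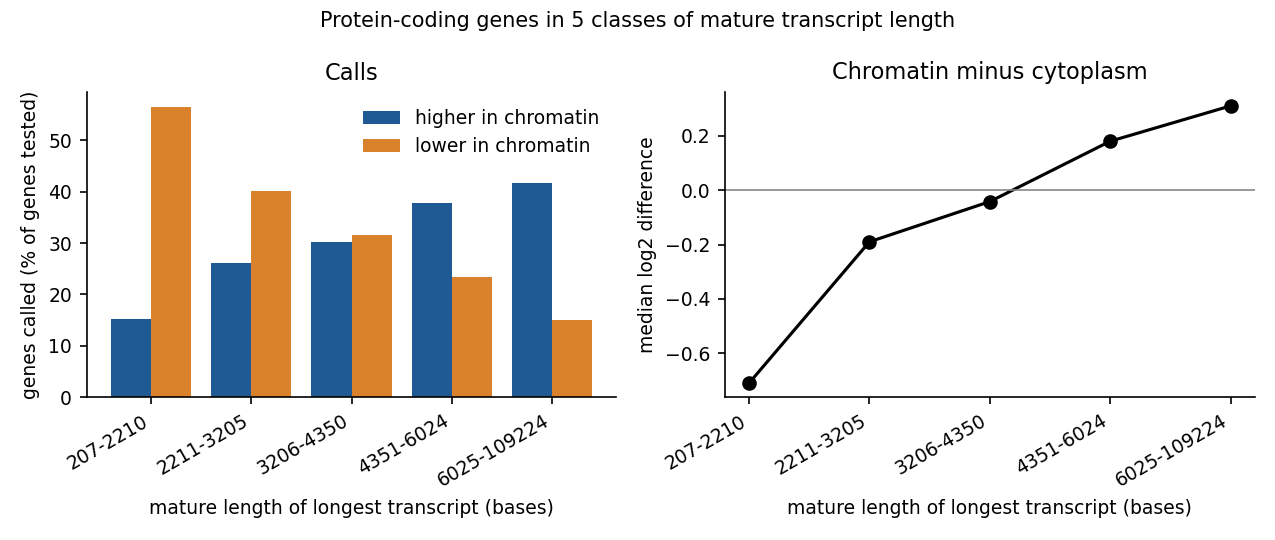
Protein-coding genes in 5 classes by the length of their longest annotated transcript (x axis, bases). At left is the percentage of tested genes called higher (blue) or lower (orange) in chromatin, and at right the median log2 difference. The share called higher goes from 15.3% in the shortest class to 41.7% in the longest, and the median from -0.71 to 0.31.

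Noncoding genes were more often higher in chromatin than protein-coding genes. Of 1543 lncRNA genes, 43.0% were higher and 7.71% lower, with a median of 0.66, against 30.3% higher and 33.3% lower with a median of -0.028 for 12916 protein-coding genes. Among 515 pseudogenes 45.8% were higher. Within lncRNAs, those named LINC gave 61 of 165 higher (37%) and 24 lower (14.5%), and those named as antisense gave 105 of 300 higher (35%) and 32 lower (10.7%). Their shares called higher were near the 32.9% of all genes. Whether reads were counted by strand is not given in the sources used here, so an antisense gene cannot be told apart from its sense partner.

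MIAT, a lncRNA of nuclear bodies, was at 1722, 2128 and 1648 CPM in chromatin and 841, 897 and 924 CPM in cytoplasm, a log2 difference of 1.05 ± 0.16. MEG3, an imprinted lncRNA, was at 218, 202 and 203 CPM against 64.8, 79.3 and 79.5 CPM, a difference of 1.48 ± 0.15. TUG1 rose by 0.62 ± 0.16 and SNHG14 by 0.55 ± 0.15, the latter not without chromatin replicate 1 or 2. Of 11 tested lncRNAs known as nuclear, 4 were higher (36.4%) and 3 lower (27.3%), near the 32.9% and 29% of all genes. MALAT1 and NEAT1 (on counts) were among the 3, while on TPM 8 were higher and 0 lower. LINC01089 rose by 1.39 ± 0.14, LINC01002 by 1.80 ± 0.24 and FEZF1-AS1, antisense to a forebrain regulator, by 1.12 ± 0.11.

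The share of counts on lncRNA genes was nevertheless not apart between fractions. It was 3.17%, 5.72% and 3.13% in chromatin and 1.91%, 3.93% and 1.94% in cytoplasm, with replicate 2 the highest in each fraction and p = 0.3 in the exact permutation test. ENSG00000280614 and ENSG00000280800, both on chromosome 21, entered this share by their GENCODE 29 class, and the source of their counts was not tested. Without them, the shares were 3.09%, 4.53% and 3.05% in chromatin and 1.90%, 3.92% and 1.91% in cytoplasm. The mean difference was 1.41 percentage points, and 1.23 without replicate 2 of both fractions.

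Isoforms absent from the Ensembl list were far more abundant on chromatin. Transcripts of a known gene that carry no Ensembl transcript ID held 30%, 32.9% and 29.7% of counts in chromatin and 14%, 17.5% and 13.8% in cytoplasm. The means were 30.9% ± 1.76 (SD, n = 3) and 15.1% ± 2.07 (SD, n = 3), the groups did not overlap, and p = 0.1 is the smallest the exact permutation test allows. The tables do not say how these isoforms differ from the listed ones, and the split of a gene's reads over its isoforms is an estimate.

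The shift lay within genes and not only between them. In 5343 genes with both kinds of isoform and at least 100 counts on average, the median share on unlisted isoforms was 41.6% ± 0.277 (SD, n = 3) in chromatin and 27.2% ± 0.434 (SD, n = 3) in cytoplasm. The share was higher in all 3 chromatin libraries than in any cytoplasm library in 2304 genes (43.1%) and lower in 299 (5.60%).

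Hosts of small nucleolar RNAs (snoRNAs), which carry the snoRNAs in their introns, were examined next. Of 17 tested host genes 4 were higher (23.5%) and 11 lower (64.7%) in chromatin as gene sums, against 32.9% and 29% of all genes, with a median of -1.01. ZFAS1 fell by 0.97 as a whole, from 256, 213 and 393 CPM in cytoplasm to 145, 142 and 153 CPM in chromatin, yet 65.4%, 57.7% and 66.7% of its chromatin counts lay on unlisted isoforms, against 11.6%, 8.65% and 6.73% in cytoplasm. SNHG29 had 40.3%, 37.5% and 41.6% in chromatin and 6.02%, 6.23% and 5.68% in cytoplasm, and a gene-level log2 difference of -1.61 ± 0.19. GAS5 had 8.29%, 9.16% and 10.1% against 1%, 1.23% and 0.844%. Of 9 host genes with both kinds of isoform, 5 were higher in all chromatin libraries, near the 43.1% of all genes, and 0 lower. SNHG1 and SNHG15 rose as gene sums too, by 0.53 ± 0.10 and 1.07 ± 0.12, while SNHG6 fell by 2.08 ± 0.19.

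CLK kinases and SR proteins, the splicing regulators that CLK kinases phosphorylate, are known for transcripts kept in the nucleus with introns. Of 4 CLK genes 3 rose, against 32.9% of all genes. These were CLK1, CLK2 and CLK3, by 0.99 ± 0.17, 1.33 ± 0.11 and 0.42 ± 0.11, and the fourth family member was not called. The CLK3 call was lost without chromatin replicate 3, and 2 members were called without replicate 2 of both fractions. The share on unlisted isoforms was higher in all chromatin libraries in each of the 3 members with both kinds of isoform, against 43.1% of all such genes. For CLK3 it was 54.9%, 46.9% and 56.3% against 16.2%, 22.1% and 19.4%.

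Of 13 SR genes 7 rose (53.8%) and 5 fell (38.5%), against 32.9% and 29% of all genes, with a median of 0.44. Only 3 rose and 6 fell without replicate 2 of both fractions. SRSF6 was at 248, 287 and 246 CPM in chromatin and 114, 103 and 112 CPM in cytoplasm, and SRSF5 rose by 1.08 ± 0.15. On TPM 9 were higher and 0 lower. SRSF11, SRSF1 and TRA2A rose by 0.67 ± 0.20, 0.49 ± 0.11 and 0.80 ± 0.22, calls that were lost without replicate 2 of both fractions, and SRSF9 fell by 0.84 ± 0.12. TRA2A had 86.2%, 83.6% and 85.9% of its counts on an unlisted isoform in chromatin and 56.3%, 49% and 48.2% in cytoplasm. SRSF1 went the other way, with 22.5%, 32.3% and 24.3% against 34.4%, 41.5% and 44.3%. Of 6 SR genes with both kinds of isoform, 5 were higher and 1 lower, against 43.1% and 5.60% of all such genes.

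**Figure D4:**
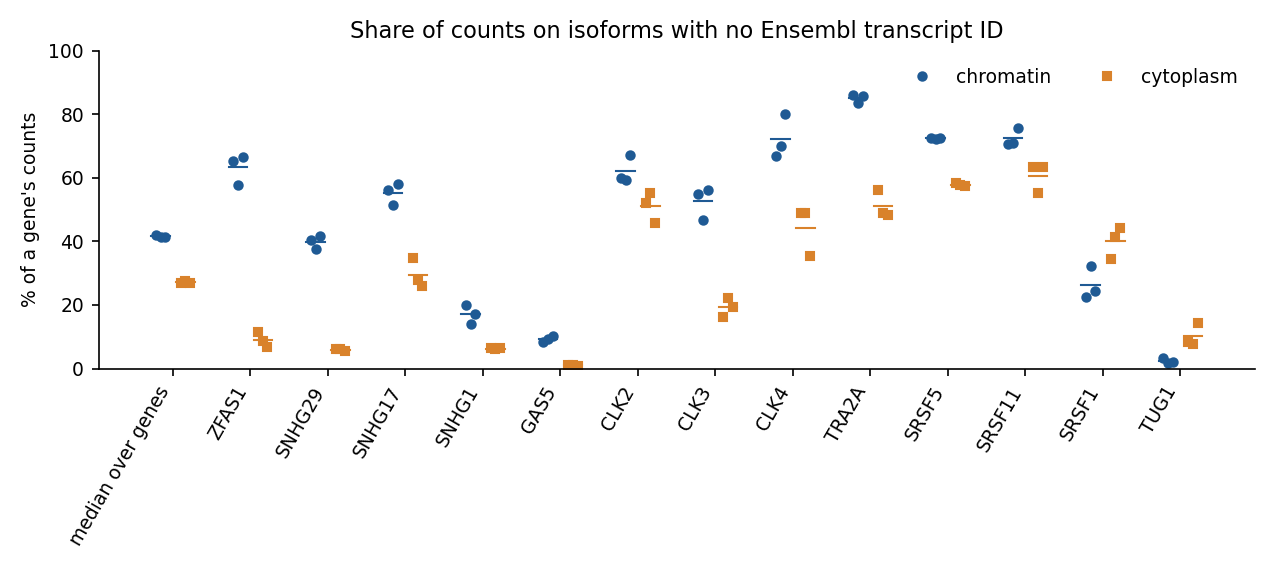
Percentage of a gene's counts on isoforms with no Ensembl transcript ID, in the 3 chromatin libraries (blue circles) and the 3 cytoplasm libraries (orange squares), with a line at each mean. The first position is the median over 5343 genes; ZFAS1 and SNHG29 are far higher in chromatin, while SRSF1 and TUG1 are lower.

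Calls for regulators of neuroectoderm identity depended on the processing. Of 25 tested genes, 2 were higher (8%) and 10 lower (40%) in chromatin, against 32.9% and 29% of all genes. Their median was -0.21, against 0.091 for all genes. With total counts 6 were higher and 5 lower, and on the authors' TPM values 19 were higher and 0 lower. SOX11, a neural transcription factor made from a gene without introns, was at 1283, 1456 and 1296 CPM in chromatin and 817, 737 and 926 CPM in cytoplasm, a log2 difference of 0.70 ± 0.18 that was not called without replicate 2 of both fractions. PAX6, LHX2 and SIX3, eye and forebrain regulators, were at -0.41 ± 0.11, -0.76 ± 0.11 and -0.60 ± 0.11, which turned positive on TPM. SOX2 was at 332, 360 and 348 CPM in chromatin and 408, 356 and 440 CPM in cytoplasm and was not called. The intermediate filament gene NES, at 648, 734 and 673 CPM against 535, 537 and 622 CPM, was called (0.28 ± 0.11), but not without any 1 chromatin library, without cytoplasm replicate 1 or without cytoplasm replicate 2.

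ZNF zinc finger genes, the largest family of transcription factors, were at 138 higher and 67 lower of 434 (31.8% higher, near the 32.9% of all genes), with a median of 0.16. The tally was 180 higher and 34 lower with total counts, and 325 higher and 2 lower on TPM. ZNF76 was at 97, 99.1 and 102 CPM in chromatin and at 26, 27.9 and 26.3 CPM in cytoplasm. ZNF883 was at 1.83, 1.70 and 1.67 CPM in chromatin and at 5.63, 7.30 and 6.21 CPM in cytoplasm.

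The same contrast in hPSC was used to see where ectoderm differed from its starting cells. Over 13322 genes present in both tables, 3061 (23%) had a chromatin-cytoplasm difference that was not the same in ectoderm and hPSC (edgeR interaction test, adjusted p under 0.05), 1422 more positive in ectoderm (10.7%) and 1639 more negative (12.3%). The total was 4525 without hPSC chromatin replicate 3 and between 2368 and 3175 when any other library was left out. The more positive count was 880, 897 and 928 without ectoderm chromatin replicates 1, 2 and 3 in turn, 940 without hPSC chromatin replicate 2 and 2370 without hPSC chromatin replicate 3. The more negative count ran from 1147 to 2155 over all libraries left out, and the balance turned without any 1 ectoderm cytoplasm library, without hPSC chromatin replicate 3 and without hPSC cytoplasm replicate 3. Each cell type was counted on its own transcript assembly, which therefore changes together with the cell type.

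Most matrix and surface mRNAs had a smaller rise on chromatin in ectoderm than in hPSC. The median log2 difference of the 31 matrix genes was 1.77 in ectoderm and 3.03 in hPSC in the joint fit, and 24 differed, all in this direction, against 12.3% of all genes. In hPSC 30 of them were higher in chromatin and 0 lower, where 63.5% of all genes were called and 34.8% were higher. FBN2 was at 1.25 in ectoderm and 3.70 in hPSC, and SPARC at -0.45 and 1.63, and the ectoderm sign of SPARC turned on TPM. Of 36 surface genes present in both cell types, 27 differed, again all with the larger rise in hPSC, among them LRP1 at 2.08 in ectoderm and 3.33 in hPSC. Mitochondrially encoded mRNAs moved the same way: all 13 differed, with medians of 0.83 in ectoderm and 3.73 in hPSC, and MT-ND5 was at 1.42 and 4.77. Whether the mitochondrial and matrix differences have the same source was not tested.

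Ribosomal protein mRNAs had a median of -1.89 in ectoderm and -1.64 in hPSC. Only 5 of 84 genes were called different, all more negative in ectoderm, where 12.3% of all genes were more negative. Of 13 SR genes, 7 were more positive in ectoderm, against 10.7% of all genes, 1 was more negative and 5 were not called different, with a median of 0.59 against -0.14 in hPSC. TRA2A was at 0.95 in ectoderm and -0.60 in hPSC. Of 26 ER machinery genes 15 were called different, all more negative in ectoderm, against 12.3% of all genes. HSPA5 was at 0.96 in ectoderm and 2.50 in hPSC.

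Among single genes called different, with a symbol and at least 10 CPM, the largest negative differences were in FAM171B, PRR11, TCAF1 and MTCO1P12. The last is a pseudogene copy of MT-CO1. TCAF1, a partner of TRP ion channels, was at 109, 103 and 98.8 CPM in ectoderm chromatin and 180, 161 and 169 CPM in ectoderm cytoplasm, and its log2 difference was -0.56 in ectoderm, with the sign turned on TPM, and 3.90 in hPSC. FNTB had a difference of 3.11 in ectoderm and -0.086 in hPSC. PVRIG2P, TSPEAR-AS2 and 1 of 2 Ensembl genes named TMSB15B were also more positive in ectoderm, with all 3 ectoderm cytoplasm libraries at 0 for TSPEAR-AS2 and 2 of 3 for PVRIG2P.

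**Figure D5:**
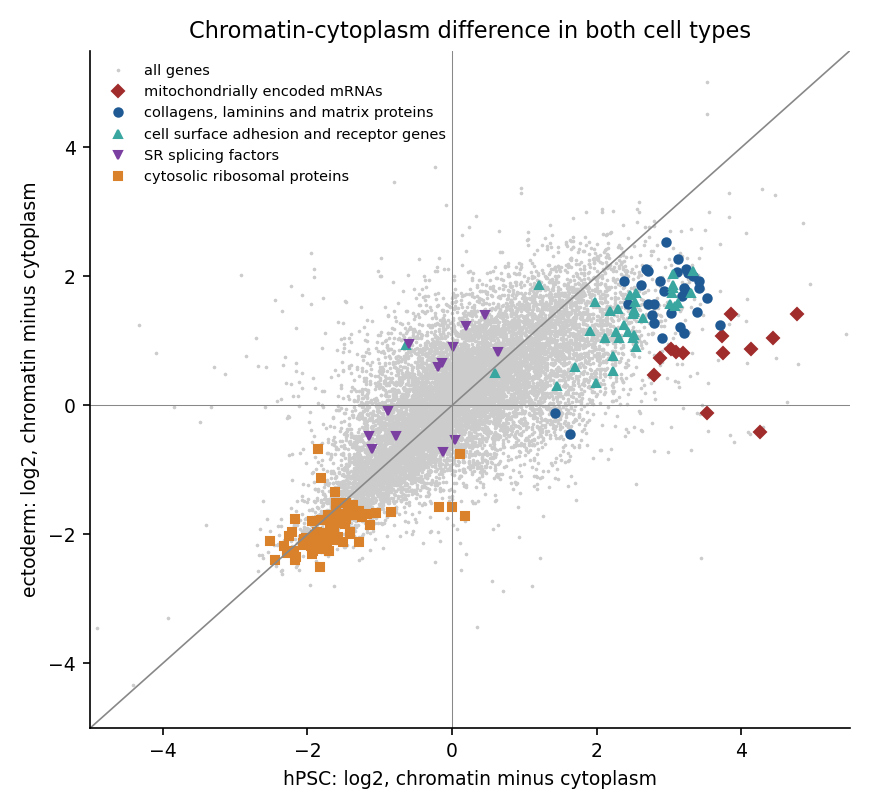
Log2 difference of chromatin minus cytoplasm in hPSC (x axis) and in ectoderm (y axis) from the joint fit, 1 point per gene, with the line of equal differences. Mitochondrially encoded, matrix and surface genes lie mostly below the line at the right, ribosomal protein genes lie around it at the lower left, and most SR genes lie above it.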

How the data were processed

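The authors deposited, per assembled transcript and library, whole-number counts and TPM values (length-corrected shares). The deposited counts were treated as rounded expected counts because RSEM is named, although no header says so. STAR, RSEM and the build hg38 are named in the submitters' processing notes, without versions or roles; filters and strand are not given in the sources used here. Counts were summed per Ensembl gene ID, 17713 genes, of which 17040 (96.2%) were found in GENCODE 29. Rows without an Ensembl gene were left out, and 1 column that matched no sample was not used. Totals of the 6 libraries ran from 12790326 to 18474308 counts, which limits precision for genes of few counts.

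The 12 ectoderm libraries were fitted together with edgeR 4.0.16 (R 4.3.3): TMM, filterByExpr with a minimum count of 10, quasi-likelihood F test, two-sided, Benjamini-Hochberg adjustment, called at 0.05. The contrast with hPSC was an interaction term over 12 libraries. Shares were compared by exact permutation (scipy 1.17.1). Standard errors are the log2 difference over the square root of F. The fit was also run on simulated data in which few genes changed, evenly up and down. In the real data most genes were called, so that run does not test the scaling or the calls given here.

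The members and gene lists were chosen with earlier results of these data known. Named are the 12 called genes with the largest rise and the 12 with the largest fall (symbol, mean of at least 10 CPM, no overlap of groups); in each list the 4 genes of highest CPM and the largest called change each way, and any gene of lists up to 16; and the 4 largest differences from hPSC each way. Alternatives were RLE factors, total counts, no mitochondrial genes, no filter, DESeq2 1.42.0, limma 3.58.1 on log2(TPM + 1) and log2(TPM + 0.1), the combined assembly, 6 libraries only, a replicate block, a 2-fold minimum, each library left out and, chosen after seeing the data, replicate 2 of both fractions left out. Genes whose libraries share reads with near copies are uncertain. The transcript sequences of 1 pair of near-identical genes are not reported here.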

Additional observations from a re-analysis of the deposited data

Results flagged for a closer look

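The results below were picked out because the chromatin-cytoplasm log2 difference in ectoderm was not that in hPSC (edgeR interaction test over 13322 genes, Benjamini-Hochberg adjusted p under 0.05). Each value in parentheses is the ectoderm log2 difference minus the hPSC one. Of the 101 genes given in the report, 95 were in this fit.

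Mitochondrially encoded mRNAs were more negative in ectoderm: MT-CO1 (-2.37), MT-CO3 (-2.16), MT-ND1 (-2.45), MT-ND5 (-3.35), MT-ND4 (-2.33) and MT-ATP8 (-4.67). So were the matrix and surface genes AGRN (-1.04), FBN2 (-2.45), LAMB1 (-1.87), SPARC (-2.08), LRP1 (-1.25) and PTPRF (-0.93), the ER chaperone gene HSPA5 (-1.54) and the spectrin gene SPTBN1 (-1.21). The housekeeping mRNAs EEF1A1 (-0.82), EEF2 (-0.73), GAPDH (-0.63), ACTB (-0.68), ENO1 (-0.61) and ALDOA (-0.63) differed in the same direction by less than 1 log2 unit each. The lncRNAs SNHG14 (-1.01), TUG1 (-0.77) and ZFAS1 (-1.33), the intermediate filament gene NES (-0.60) and the zinc finger gene ZNF883 (-2.98) were also more negative in ectoderm. TCAF1 (-4.46), PRR11 (-4.57) and FAM171B (-4.63) had the largest negative values among called genes with a symbol and at least 10 CPM.

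More positive in ectoderm were the splicing factor genes SRSF5 (1.03), SRSF6 (0.93), SRSF1 (0.79) and TRA2A (1.55). The same direction was found for EIF2B5 (1.17), ATP5F1B (0.66), NDUFV3 (1.14), PSMD5 (0.95), SOX11 (0.86), ZNF76 (1.76) and FNTB (3.19). The 2 cell types were counted on separate assemblies, and the part of the assembly in these differences was not tested.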

How the results depend on the processing

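Most alternatives changed 1 choice at a time. DESeq2 also changed the size factors, the TPM fits changed both the measure and the test (limma), and leaving out replicate 2 of both fractions was chosen after seeing the data. The count of genes called between chromatin and cytoplasm, 9689, was 9675 with DESeq2 (5058 higher, 4617 lower), 9679 with RLE factors, 9720 with total counts, 9614 without mitochondrial genes, 11094 on log2(TPM + 1), 10725 on log2(TPM + 0.1), 8121 without replicate 2 of both fractions and 4889 when a 2-fold change was also asked for. It ran from 8569 to 8898 when each library was left out, and was 10534 with only the 6 chromatin and cytoplasm libraries in the fit. Of called genes 53.2% were higher, against 64.2% with total counts and 91.9% on TPM. It was 47.3%, 47.1% and 46.9% without chromatin replicates 1, 2 and 3 in turn, 47.5% with no filter and 46.3% without replicate 2 of both fractions. For the difference from hPSC, 3061 genes became 3458 with DESeq2, and 2368 to 4525 with each library left out, the highest without hPSC chromatin replicate 3. With each library left out, the chromatin minus cytoplasm difference in share ran from 0.842 to 1.17 percentage points for mitochondrial mRNA, from -9.96 to -8.81 for ribosomal protein mRNA, from 0.56 to 2.08 for lncRNA genes and from 14.8 to 17 for unlisted isoforms. As shares of TPM, the differences were 4.39, -17.1, 1.57 and 12.8.

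Of the 101 genes given, 82 kept direction and call on TPM, 95 with total counts, 100 with DESeq2 and 89 without replicate 2 of both fractions. The log2 difference changed sign on TPM, with pseudocounts of 0.1 and then 1, for NEAT1 (0.071, 0.052), PKM (0.23, 0.23), LHX2 (0.26, 0.26), TCAF1 (0.30, 0.30), PRR11 (0.41, 0.40), SPARC (0.41, 0.40), SIX3 (0.42, 0.42), FAM171B (0.52, 0.45), PAX6 (0.55, 0.55), ATP5F1B (0.56, 0.56), SOX2 (0.81, 0.81) and MT-ATP8 (2.12, 2.12). It also changed sign for SOX2 with total counts (0.0064) and for MT-ATP8 without cytoplasm replicate 3, where it was 1.34, the highest of a range that began at -1.05 without cytoplasm replicate 2. The causes were not tested.

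With the replicate number as a block, 9427 genes were called between fractions and 2328 for the difference from hPSC. Over the genes tested, deviations from the fraction means had correlations of 0.01, -0.10 and -0.01 between same-numbered chromatin and cytoplasm libraries. With 3 libraries per fraction these values cannot show whether same-numbered libraries were prepared together. Replicate 2 stood apart in both fractions in its counts without an Ensembl gene, which these correlations leave out. Genes with few counts, such as MT-ATP8, ZNF883 and 7SK, are the ones where depth limits the comparison.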
